A study of Mus musculus with 10 samples.

Results

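Transcripts of 33 genes that encode the enzymes of glycolysis, lactate dehydrogenase, the pyruvate dehydrogenase complex, pyruvate carboxylase and the tricarboxylic acid (TCA) cycle were compared in mouse hippocampus after ablation of the meningeal lymphatic vessels. The genes were chosen by symbol. The rule did not use their values, but the choice was made with earlier results of these data known. All 33 were found among the 27343 genes of the deposited table and passed the filter on low counts. Male wild-type C57BL/6J mice, 2 months old, received Visudyne (verteporfin, a photosensitizer) into the cisterna magna, and control mice received the vehicle by the same route. In both arms red light of 689 nm was then applied above the intact skull, per the labels' protocols, and the procedure was given again 2 weeks later. All mice of both groups performed the Morris water maze 2 weeks after the last procedure, and the whole hippocampus was dissected 3 days after it. There were 5 libraries of each group, Visudyne 1 to 5 and vehicle 6 to 10, and each label names 1 library. Nothing in the labels says which mouse or preparation a library came from beyond that, so the p-values measure the spread between these libraries.

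Glycolysis splits glucose into pyruvate in the cytosol, and lactate dehydrogenase converts pyruvate and lactate into each other. Pyruvate enters the mitochondrion and is turned into acetyl-CoA by the pyruvate dehydrogenase complex or into oxaloacetate by pyruvate carboxylase, and the TCA cycle then oxidises it. In brain, astrocytes are known for a high glycolytic rate, for aldolase C and for pyruvate carboxylase, while neurons are known for neuron-specific enolase and for a heavy reliance on oxidative metabolism. RNA of whole tissue does not separate these cells, so fewer cells of a type and less RNA per cell cannot be told apart.

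Total counts were 24752362 to 41073906 per library, and the 33 genes held 0.23% to 0.366% of them in Visudyne and 0.348% to 0.447% in vehicle. Between 32.2% and 39.7% of a library's counts came from mt-Rnr2, a ribosomal RNA of mitochondria. Libraries also differed in how counts varied with the GC content of a gene's exons. For each gene, log2 CPM (TMM-scaled counts) was taken relative to the gene's mean over the 10 libraries. The slope of this value per 10 percentage points of GC was -0.53 to 0.013 in the Visudyne libraries and -0.015 to 0.40 in vehicle. It was lowest in Visudyne 1 and highest in vehicle 9. The sign of a slope is thus relative to the average library. Neuronal and astrocyte markers were present in all libraries. The 12 neuronal markers summed to 5524 to 6882 CPM after Visudyne against 4935 to 5676 CPM after vehicle, with 2 called higher and 1 lower, and the 11 astrocyte markers to 4790 to 6421 and 4746 to 5436 CPM, with 1 called higher and 0 lower. None of the markers of either list was at 0 in any library. The 10 oligodendrocyte markers summed to 2283 to 2735 CPM after Visudyne against 2351 to 3168 CPM after vehicle, with 5 of 9 tested called lower, and 7 choroid plexus and ependymal markers to 23.1 to 414.8 and 22.6 to 33.7 CPM, with Ttr called higher. Mag of the oligodendrocyte list and Aqp1 of the choroid plexus and ependymal list were each at 0 in some library. Sums that did not overlap between the groups were those of 5 mural cell markers, at 101 to 115 CPM after Visudyne against 79.1 to 100.1 CPM after vehicle, with 3 of 5 called lower and Rgs5 higher, and Kcnj8 at 0 in some library. The same held for 4 muscle and dura markers, at 46.5 to 76.3 against 27.4 to 43.8 CPM, with Dcn called higher of 2 tested. The part of these markers in the results below was not tested.

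In the Visudyne hippocampus, 20 of the 33 genes were lower and 0 were higher by the edgeR quasi-likelihood test (Benjamini-Hochberg adjusted p under 0.05 over 15938 genes). Of all tested genes 20.5% were called, 11.5% lower and 8.98% higher. The 20 genes stood at 0.515 to 0.891 of their vehicle level, with a median of 0.721, and in each of them all 5 Visudyne libraries were below the vehicle mean. The median log2 fold change of the 33 genes was -0.28, against 0.01 over all tested genes, and 26 of the 33 were below 0, against 48.9% of all. Genes of glycolysis and the TCA cycle were both among those called, at 10 of 14 and 7 of 11. None of the 4 subunits of the pyruvate dehydrogenase complex among the 33 genes was called. The adjusted p of the 20 genes lay between 0.025 and 0.045, close to the threshold. The number of calls depended on which libraries entered the fit, for these genes and for all tested genes. When 1 library was left out, the number called lower by edgeR was 0 for Visudyne 3 (0.031% of all tested genes), 0 for vehicle 6 (0.0311%) and 0 for vehicle 9 (0.796%). It was 7 for Visudyne 1 (4.22%), 7 for Visudyne 2 (6.06%), 6 for Visudyne 4 (3.7%) and 9 for vehicle 7 (5.55%). It was 14 for vehicle 8 (8.46%), 23 for vehicle 10 (13.6%) and 25 for Visudyne 5 (17.9%). In each of these 10 edgeR fits 25 to 29 of the 33 genes had an unadjusted p under 0.05, against 27 with all libraries. The share of all tested genes under that unadjusted threshold was not counted, so these numbers do not set the 33 genes apart. All 20 genes stayed below 1-fold in each of those fits. The groups did not overlap, with Visudyne lower, in 11 of the 33 genes, against 7.22% of all tested genes.

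**Figure D1:**
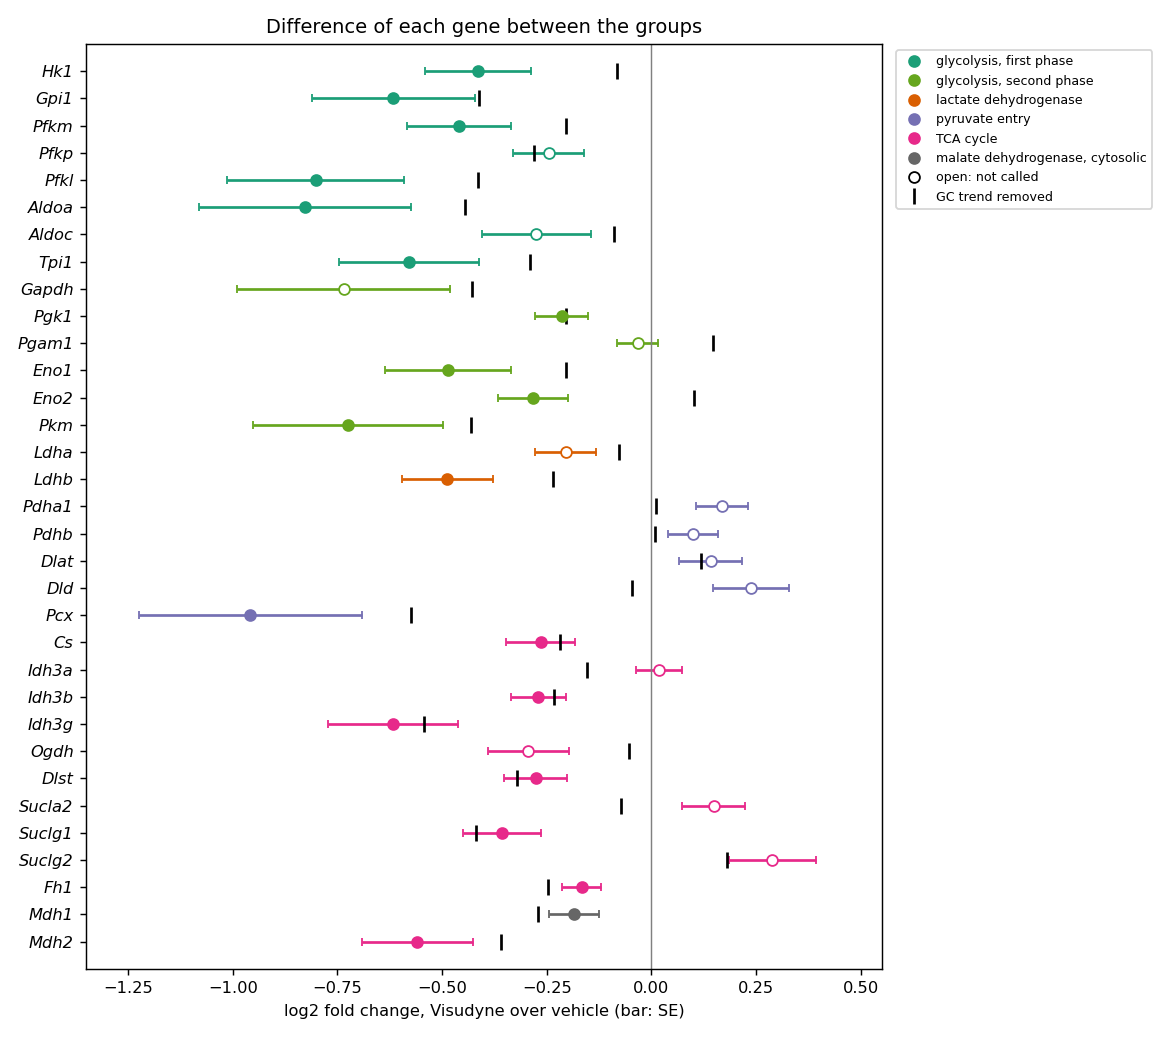
Log2 fold change of each of the 33 genes, Visudyne over vehicle (x axis), in the order of the pathway, with the SE as a bar, filled where the gene was called and open where it was not; the black tick is the log2 fold change with the GC trend of the library taken out. The 14 glycolysis genes lie below 0, and the 4 subunits of pyruvate dehydrogenase among the 33 genes lie above 0 and are open.

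The calls also moved with the GC trend of the libraries. In a further fit each library's trend with exon GC content was removed, again in log2 CPM relative to each gene's mean. In it 7 of the 33 genes were called lower and 0 higher, against 1.98% and 1.31% of all tested genes. The 7 were Idh3b, Idh3g, Dlst, Suclg1, Fh1, Mdh1 and Mdh2, all called in the fit without that step, so 6 of 11 TCA cycle genes and the cytosolic malate dehydrogenase kept their call. In the same fit 0 of 14 glycolysis genes were called, at medians of -0.29 for the steps from glucose to triose phosphate and -0.20 for those from triose phosphate to pyruvate. The median of the 11 TCA cycle genes was -0.23, between these. The 7 calls lay near the threshold, from adjusted p = 0.040 (Fh1) to 0.0497 (Idh3b) by edgeR. Among the glycolysis genes the lowest was Pfkl, at adjusted p = 0.060 by edgeR. Whether glycolysis and TCA cycle genes differed from each other was not tested. With the slope of each library on GC as a term in edgeR, 0 of the 33 genes were called (2 had an unadjusted p under 0.05), as were 0 of all genes (1060 with an unadjusted p under 0.05), and the median of the 33 was 0.012. With 1 surrogate variable 0 of the 33 were called by edgeR (8 with an unadjusted p under 0.05), and the median was -0.084. Of all 15938 tested genes 1 was called in that fit (2295 with an unadjusted p under 0.05). DESeq2, with no GC term, called 24 lower and 2 higher, against 16.2% and 13.3% of the genes it gave an adjusted p. With only genes at a mean of 1 CPM or more in the fit, edgeR called 1 of the 33 higher, Pdha1, against 13.5% of all such genes.

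The first reactions of glycolysis trap glucose in the cell and split it into triose phosphates, and 6 of their 8 genes were called lower. Hk1 encodes hexokinase 1, the main hexokinase of brain, which phosphorylates glucose. Its mean was 49.7 ± 8.63 CPM after Visudyne against 66.2 ± 9.34 CPM after vehicle (SD, n = 5 each; edgeR log2 fold change -0.41 with SE 0.13 at adjusted p = 0.040). Gpi1, which encodes glucose-6-phosphate isomerase, was at 37.7 ± 11.2 and 57.8 ± 10.8 CPM, a fold of 0.652. Tpi1, which encodes triosephosphate isomerase, was at 73.3 ± 19.1 and 109.5 ± 16.1 CPM, a fold of 0.669. Without the GC trend the log2 fold changes of Hk1, Gpi1 and Tpi1 were -0.083, -0.41 and -0.29, and none was called.

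Phosphofructokinase, which commits glucose to glycolysis, has a muscle (Pfkm), a liver (Pfkl) and a platelet (Pfkp) isoform, and all are made in brain. Per kilobase of annotated exon, Pfkm was at 18.9 ± 2.51 CPM in vehicle, Pfkp at 6.78 ± 0.476 and Pfkl at 2.48 ± 0.668. Before division by length, Pfkp was highest in vehicle, at 90.9 CPM, with Pfkm at 63.1 and Pfkl at 16.5. The merged exons hold 13401 bases in Pfkp, 3340 in Pfkm and 6675 in Pfkl. The order of Pfkm and Pfkp thus depends on the length used and was not settled here. Pfkl, the isoform with the largest difference, was at 5.53, 10.6, 8.81, 10.3 and 12.2 CPM in Visudyne 1 to 5 and at 19.9, 14.8, 12.5, 22.5 and 12.9 CPM in vehicle 6 to 10. The groups did not overlap, although Visudyne 5 lay just under the lowest vehicle library. Its log2 fold change was -0.80 (SE 0.21, adjusted p = 0.030 by edgeR). Pfkm was called at a log2 fold change of -0.46 (SE 0.12), and Pfkp, at -0.25 (SE 0.085, adjusted p = 0.057 by edgeR), was not. After removal of the GC trend they were at -0.42 for Pfkl, -0.21 for Pfkm and -0.28 for Pfkp, none called.

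Aldolase splits fructose bisphosphate, and its isoforms A (Aldoa, the ubiquitous form) and C (Aldoc, in brain a marker of astrocytes) were similar in abundance in vehicle, at 72.5 ± 18.9 and 57.5 ± 7.04 CPM per kilobase. Aldoa was at 55.7, 128, 106, 130.4 and 175 CPM in Visudyne 1 to 5 and at 246, 184, 164, 291 and 171 CPM in vehicle 6 to 10. Visudyne 1 was lowest and vehicle 9 highest, and Visudyne 5 lay above vehicle 8 and vehicle 10. The log2 fold change of Aldoa was -0.83 (SE 0.25, adjusted p = 0.041 by edgeR). Aldoc was at 123, 153, 145, 144 and 209.9 CPM with Visudyne and, with vehicle, at 179, 190.0, 197, 217 and 155 CPM, so that Visudyne 5 lay above 4 of the 5 vehicle libraries and the groups overlapped. Aldoc was not called (edgeR log2 fold change -0.28 with SE 0.13 at adjusted p = 0.13). Free of the GC trend, Aldoa was at -0.45 and Aldoc at -0.089, neither called.

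**Figure D2:**
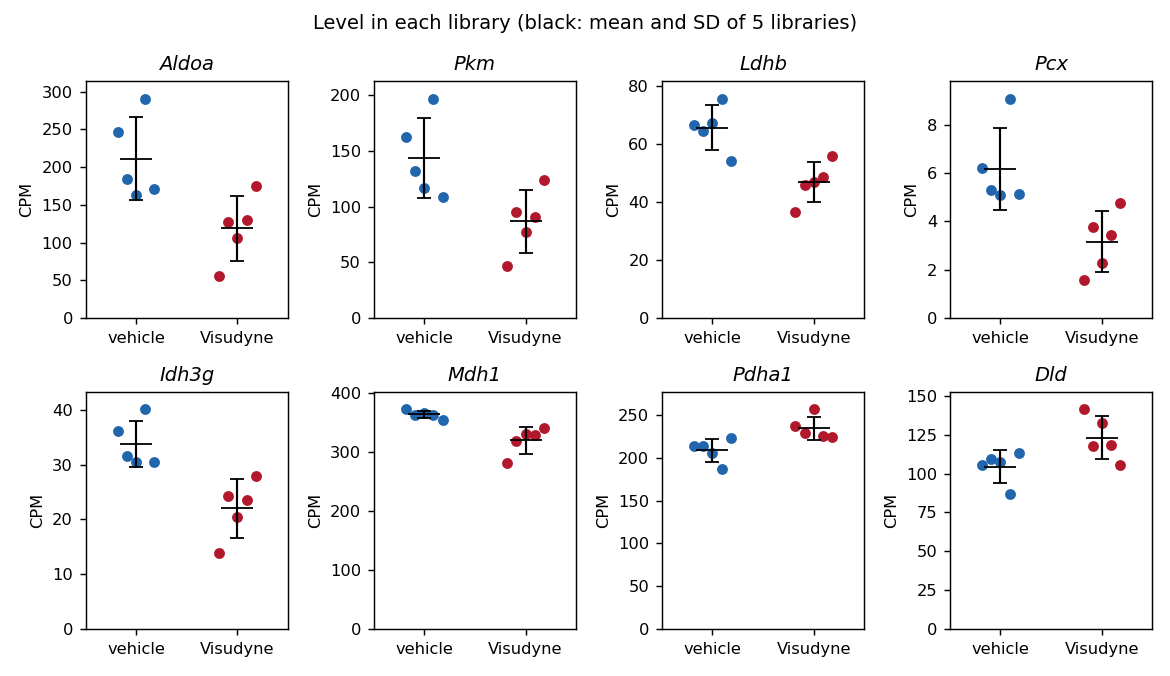
CPM of 8 genes in each library (y axis, from 0), as points, 5 libraries a group, with black bars for the mean and SD. Pcx, Idh3g and Mdh1 do not overlap between the groups with Visudyne lower, while Pdha1 does not overlap with Visudyne higher, from 225 to 257 CPM against 187 to 223 CPM.

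The later reactions of glycolysis yield ATP and NADH, and 4 of their 6 genes were called lower. Gapdh, which encodes glyceraldehyde-3-phosphate dehydrogenase and is often used as a reference gene, was at 51.2, 117, 101, 117 and 154 CPM in Visudyne 1 to 5 and at 213, 148, 150.0, 257 and 133 CPM in vehicle 6 to 10. The groups overlapped through Visudyne 5. Gapdh had a log2 fold change of -0.74 with a wide error (SE 0.25, adjusted p = 0.056 by edgeR) and was not called. Pgk1, which encodes phosphoglycerate kinase, was called at a fold of 0.862, with 215 ± 16.5 CPM after Visudyne against 249.7 ± 11.4 CPM after vehicle (n = 5 each). Pgam1, which encodes phosphoglycerate mutase, was at 235 ± 7.37 and 239.9 ± 7.59 CPM (edgeR log2 fold change -0.032 with SE 0.049 at adjusted p = 0.65), the smallest difference among the glycolysis genes.

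Pkm encodes the pyruvate kinase of brain, and reads of its alternative exons were not separated in the gene-level table. It was at 46.6, 95.1, 77.6, 90.8 and 124 CPM in Visudyne 1 to 5 and at 163, 132, 117, 197 and 109 CPM in vehicle 6 to 10. Visudyne 5 alone overlapped the vehicle range (edgeR log2 fold change -0.73 with SE 0.23 at adjusted p = 0.043). The enolases form phosphoenolpyruvate. Eno2, the neuron-specific enolase, was at 117, 152, 136, 147 and 157 CPM with Visudyne and, with vehicle, at 183, 167, 165, 189 and 158 CPM. These groups did not overlap, although Visudyne 5 and vehicle 10 lay next to each other, and Eno2 was called at a fold of 0.822. Eno1, the form of glia and most other tissues, was called at a fold of 0.714, from 96.4 ± 15.6 to 68.8 ± 14.6 CPM. Once the GC trend was removed, Eno2 was at a log2 fold change of 0.10 and Eno1 at -0.20, neither called. Per kilobase Eno2 was at 36.6 ± 2.8 CPM and Eno1 at 17.9 ± 2.9 CPM in vehicle.

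Lactate dehydrogenase is a tetramer of subunits encoded by Ldha and Ldhb. Ldhb was at 36.8, 45.8, 47.2, 48.7 and 56 CPM in Visudyne 1 to 5 and at 66.6, 64.7, 67.3, 75.8 and 54.3 CPM in vehicle 6 to 10. Only vehicle 10 and Visudyne 5 overlapped, and Ldhb was called at a fold of 0.713 (edgeR log2 fold change -0.49 with SE 0.11 at adjusted p = 0.025), the smallest adjusted p of the 33 genes. Ldha was at 50.5, 57.8, 60.0, 56.9 and 65 CPM with Visudyne and, with vehicle, at 71, 62.8, 63.5, 72.8 and 64.3 CPM. Its difference was smaller and it was not called (edgeR log2 fold change -0.20 with SE 0.073 at adjusted p = 0.062). Removal of the GC trend put Ldhb at -0.24 and Ldha at -0.077.

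Pyruvate dehydrogenase is built from an E1 heterotetramer (Pdha1, Pdhb), the E2 acetyltransferase (Dlat) and the E3 dehydrogenase (Dld), and it links glycolysis to the TCA cycle. Pdha1 was at 237, 229, 257, 225 and 225 CPM in Visudyne 1 to 5 and at 214, 214, 205, 187 and 223 CPM in vehicle 6 to 10. Every Visudyne library lay above every vehicle library, as in 5.25% of all tested genes, but the difference was small and not called (edgeR log2 fold change 0.17 with SE 0.062 at adjusted p = 0.068). Pdhb was at 72.3 ± 4.44 and 67.5 ± 3.62 CPM, Dlat at 142 ± 9.71 and 128 ± 12.3 CPM and Dld at 123 ± 13.9 and 104 ± 10.4 CPM in Visudyne and vehicle. None of these was called, at log2 fold changes of 0.099, 0.14 and 0.24. After removal of the GC trend Pdha1 was at 0.011, Pdhb at 0.0092, Dlat at 0.12 and Dld at -0.047, none called. With total counts in place of TMM sizes Pdha1 was at -0.037, Pdhb at -0.11 and Dlat at -0.065, since that scaling moved the median of all genes from 0.01 to -0.19.

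Pyruvate carboxylase (Pcx), which refills the cycle and in brain is an astrocyte enzyme, was the least abundant of the 33 genes per kilobase and had the largest fold. It was at 1.57, 3.76, 2.27, 3.46 and 4.77 CPM in Visudyne 1 to 5 and at 6.23, 5.3, 5.1, 9.08 and 5.12 CPM in vehicle 6 to 10. The groups did not overlap, with vehicle 9 far above the other vehicle libraries. The log2 fold change was -0.96 (SE 0.27, adjusted p = 0.033 by edgeR), or a fold of 0.515. It was -0.57 with the GC trend removed, where Pcx was not called, and 0.012 with the GC slope as a model term.

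The promoters of 2 pairs of genes that parted in these libraries, Ldha with Ldhb and Pcx with Pdha1, are printed to show the sequence at the start of genes of neighbouring function. Each is a RefSeq window on GRCm38.p6 from 250 bases before to 50 bases after a transcription start, 5′ to 3′ on the gene's strand, with capitals for matches to the motifs searched. Ldha lies at chr7:46845554-46845853 (plus strand) and Ldhb at chr6:142507908-142508207 (minus strand). Pcx lies at chr19:4510222-4510521 (plus strand) and Pdha1 at chrX:160138381-160138680 (minus strand). Ldha and Pcx each have 1 more window in the table.
Ldha: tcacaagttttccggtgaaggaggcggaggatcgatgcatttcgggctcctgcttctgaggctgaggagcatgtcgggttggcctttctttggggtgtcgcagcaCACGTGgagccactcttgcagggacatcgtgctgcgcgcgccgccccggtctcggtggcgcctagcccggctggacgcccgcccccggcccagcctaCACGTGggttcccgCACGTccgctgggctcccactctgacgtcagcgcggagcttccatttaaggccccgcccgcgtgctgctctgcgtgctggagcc
Ldhb: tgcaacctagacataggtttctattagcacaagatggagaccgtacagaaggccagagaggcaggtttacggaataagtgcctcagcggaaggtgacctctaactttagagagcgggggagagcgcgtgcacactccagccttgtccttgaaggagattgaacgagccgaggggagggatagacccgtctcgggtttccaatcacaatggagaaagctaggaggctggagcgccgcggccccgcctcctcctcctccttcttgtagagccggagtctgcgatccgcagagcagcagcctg
Pcx: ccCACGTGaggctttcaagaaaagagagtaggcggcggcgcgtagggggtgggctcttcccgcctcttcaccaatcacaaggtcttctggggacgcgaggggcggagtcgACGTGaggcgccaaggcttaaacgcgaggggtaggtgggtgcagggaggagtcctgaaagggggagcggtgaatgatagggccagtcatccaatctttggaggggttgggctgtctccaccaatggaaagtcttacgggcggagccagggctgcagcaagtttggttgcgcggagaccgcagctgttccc
Pdha1: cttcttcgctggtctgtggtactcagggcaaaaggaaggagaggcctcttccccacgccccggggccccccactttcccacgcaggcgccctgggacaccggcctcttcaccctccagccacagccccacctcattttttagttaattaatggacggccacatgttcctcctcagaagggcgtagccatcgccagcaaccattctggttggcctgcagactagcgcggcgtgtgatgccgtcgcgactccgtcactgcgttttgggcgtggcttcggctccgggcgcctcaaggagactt

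Of the 33 genes 32 had at least 1 such window, 49 windows in all. Idh3a had none. ACGTG, the core of the hypoxia response element, was searched on both strands (as ACGTG or CACGT). It stood in 21 of the 49 windows (42.9%), against 19.6% of all 32851 windows and 24.2% of those of tested genes. These windows belonged to 14 of 32 genes, and the share of all genes with a match was not counted. Ogdh alone gave 6 of the 21, some of them overlapping. CACGTG, the E-box, which holds an ACGTG on each strand, stood in 6 of the 49 (12.2%), against 7.15% of all windows and 9.32% of those of tested genes. The 6 belonged to 4 of 32 genes, again without a share of all genes. Of the 6 windows 3 were of Ogdh, and 2 of these overlap. The motif of nuclear respiratory factor 1 stood in 5 of the 49 (10.2%), against 4.6% of all windows and 8.77% of those of tested genes, which is close to the share in the members. The Ldha window printed above held 5 matches to ACGTG and the Pcx window 3, while those of Ldhb and Pdha1 held 0. The second Ldha window and the second Pcx window, not printed, also held 0. A match is a run of letters and was not measured as a bound site in these mice.

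The TCA cycle oxidises acetyl-CoA and feeds the respiratory chain, and 7 of its 11 genes were called lower, each with no overlap between the groups. Cs, which encodes citrate synthase, was at 85.6 ± 9.07 CPM after Visudyne against 103 ± 8.39 CPM after vehicle (n = 5 each), a fold of 0.832. After that removal it was at a log2 fold change of -0.22 and not called. Isocitrate dehydrogenase 3 is made of a catalytic alpha subunit (Idh3a) and of beta and gamma subunits (Idh3b, Idh3g), and the subunits parted. Idh3g was at 13.8, 24.2, 20.4, 23.6 and 28 CPM in Visudyne 1 to 5 and at 36.2, 31.6, 30.6, 40.1 and 30.4 CPM in vehicle 6 to 10. Its log2 fold change was -0.62 (SE 0.15, adjusted p = 0.028 by edgeR), and -0.54 with the GC trend removed, where it was called. Idh3b was called at -0.27 and, with the trend removed, at -0.23. Idh3a was at 90.2, 85.6, 91.7, 85.2 and 89.2 CPM with Visudyne and, with vehicle, at 87.2, 89.6, 85.1, 80.5 and 94 CPM, with the groups interleaved (edgeR log2 fold change 0.018 with SE 0.054 at adjusted p = 0.82). Its direction turned to -0.15 with the GC trend removed, not called.

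The 2-oxoglutarate dehydrogenase complex contains Ogdh and Dlst. Ogdh, its E1 subunit, was at 56.3 ± 7.42 and 69 ± 7.21 CPM and not called (edgeR log2 fold change -0.29 with SE 0.097 at adjusted p = 0.0505), and Dlst, the E2 subunit, was called at -0.28 (SE 0.075). Without the GC trend they were at -0.053 and -0.32, and Dlst was called. Succinyl-CoA ligase pairs a common alpha subunit (Suclg1) with a beta subunit that makes ATP (Sucla2) or GTP (Suclg2). Suclg1 was at 23.1, 30.1, 27.2, 31 and 31.8 CPM in Visudyne 1 to 5 and at 38.5, 32, 36.5, 41.3 and 35 CPM in vehicle 6 to 10, and was called at a fold of 0.781. Neither beta subunit was called. Suclg2 was at 12.3, 9.74, 12.5, 12.9 and 12.2 CPM with Visudyne and, with vehicle, at 10.4, 11.5, 9.38, 9.31 and 8.23 CPM, where Visudyne 2 alone lay within the vehicle range (edgeR log2 fold change 0.29 with SE 0.10 at adjusted p = 0.064). It was the largest difference upward among the 33 genes. Sucla2, which in brain is the more abundant beta subunit, was at 211 ± 14.5 and 189.9 ± 17.5 CPM (log2 fold change 0.15, SE 0.075).

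Fh1, which encodes fumarase, showed a small and tight difference. It was at 38.1, 39.8, 39.5, 41.3 and 40.6 CPM in Visudyne 1 to 5 and at 44.9, 44.2, 46.2, 44.6 and 43.9 CPM in vehicle 6 to 10 (fold 0.891, edgeR log2 fold change -0.17 with SE 0.046 at adjusted p = 0.033). Malate dehydrogenase has a cytosolic form (Mdh1), part of the malate-aspartate shuttle, and a mitochondrial form in the cycle (Mdh2). Mdh1, the most abundant of the 33 genes per kilobase at 142 ± 2.6 CPM in vehicle, was at 281, 318, 331, 329.5 and 340.0 CPM with Visudyne and, with vehicle, at 373, 363, 366, 363 and 354 CPM. Mdh2 was at 12.5, 17.8, 17, 19.6 and 22.4 CPM with Visudyne and, with vehicle, at 26.5, 26.8, 23.4, 31.2 and 23.8 CPM. Neither overlapped between the groups, and the folds were 0.88 for Mdh1 and 0.679 for Mdh2. Free of the GC trend, Fh1 was at a log2 fold change of -0.25, Mdh1 at -0.27 and Mdh2 at -0.36, all called. With the slope as a model term they were at -0.12, -0.052 and -0.075, and none was called.

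**Figure D3:**
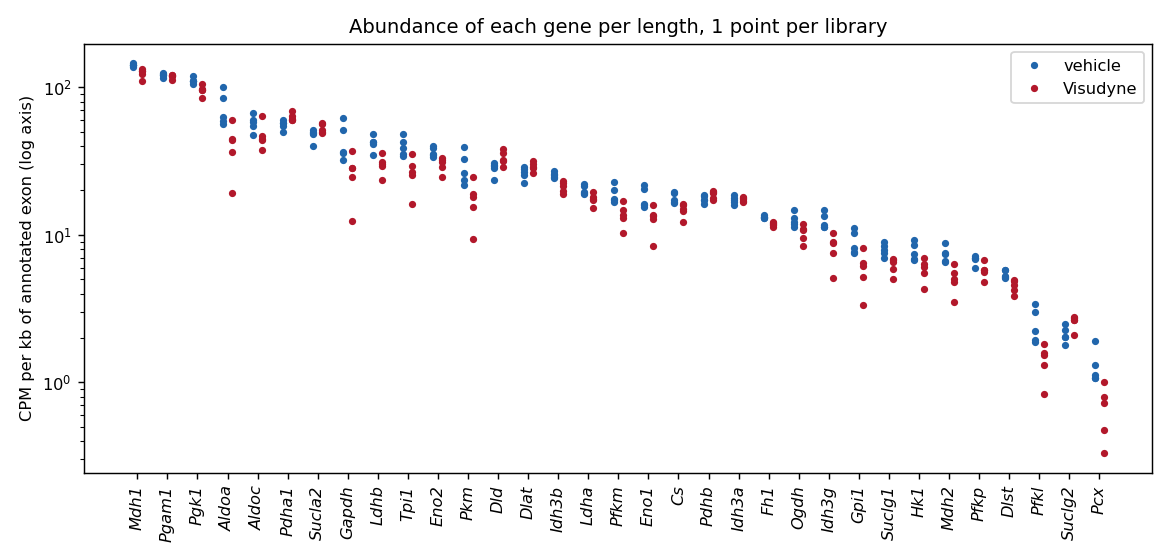
CPM per kilobase of annotated exon for the 33 genes (y axis, log scale), ordered by their vehicle mean, with 1 point per library in blue for vehicle and red for Visudyne. The levels run from Mdh1 at 142 CPM per kilobase to Pcx at 1.3 in vehicle.

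Isoforms and subunits were set side by side as the log2 ratio of their counts within a library, which does not depend on library size. Of 14 pairs 7 differed between the groups at an adjusted p of 0.048 (exact two-sided permutation test Benjamini-Hochberg over the 14 pairs). The share among other pairs of genes was not counted, and some of the 14 pairs share a gene, so this number does not set the pairs apart. The Idh3a to Idh3g ratio was 2.04 ± 0.412 in Visudyne and 1.38 ± 0.245 in vehicle, a difference of 0.67 (exact permutation p = 0.00794, the smallest these groups allow, n = 5 each). The Pcx to Pdha1 ratio differed by -1.19 (exact permutation p = 0.00794), and these 2 pairs did not overlap between the groups. The Ldhb to Ldha ratio was -0.32 ± 0.1 in Visudyne and -0.029 ± 0.137 in vehicle, a difference of -0.29 (exact permutation p = 0.0238). Mdh1 to Mdh2 differed by 0.39, Idh3a to Idh3b by 0.29, Pfkm to Pfkl by 0.34 and Pfkl to Pfkp by -0.56. No call was made for the neuronal against the other enolase, Eno2 to Eno1, at 0.21 (adjusted p = 0.078), or for the astrocytic against the ubiquitous aldolase, Aldoc to Aldoa, at 0.60 (adjusted p = 0.056), by the same exact permutation test. Pfkm to Pfkp (-0.22), Dlat to Dld (-0.091), Sucla2 to Suclg2 (-0.14), Pdha1 to Pdhb (0.070) and Dlst to Ogdh (0.018) were not called either.

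In 12 of the 14 pairs the gene with more GC in its exons had the lower ratio in Visudyne. With the GC trend removed from the ratios, 3 pairs were called at an adjusted p of 0.037. They were Idh3a to Idh3g at 0.41, Pcx to Pdha1 at -0.63 and Dlst to Ogdh, whose difference turned to -0.27. The 7 calls rested on small margins. The count was 0 without Visudyne 1, 0 without Visudyne 3, 0 without Visudyne 4, 0 without vehicle 6, 0 without vehicle 7 and 0 without vehicle 9, and 0 with a prior count of 10 in place of 0.5. In these 7 settings 6 to 9 of the 14 pairs had an unadjusted exact permutation p under 0.05, against 9 with all libraries. The share among other pairs of genes was not counted there either.

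**Figure D4:**
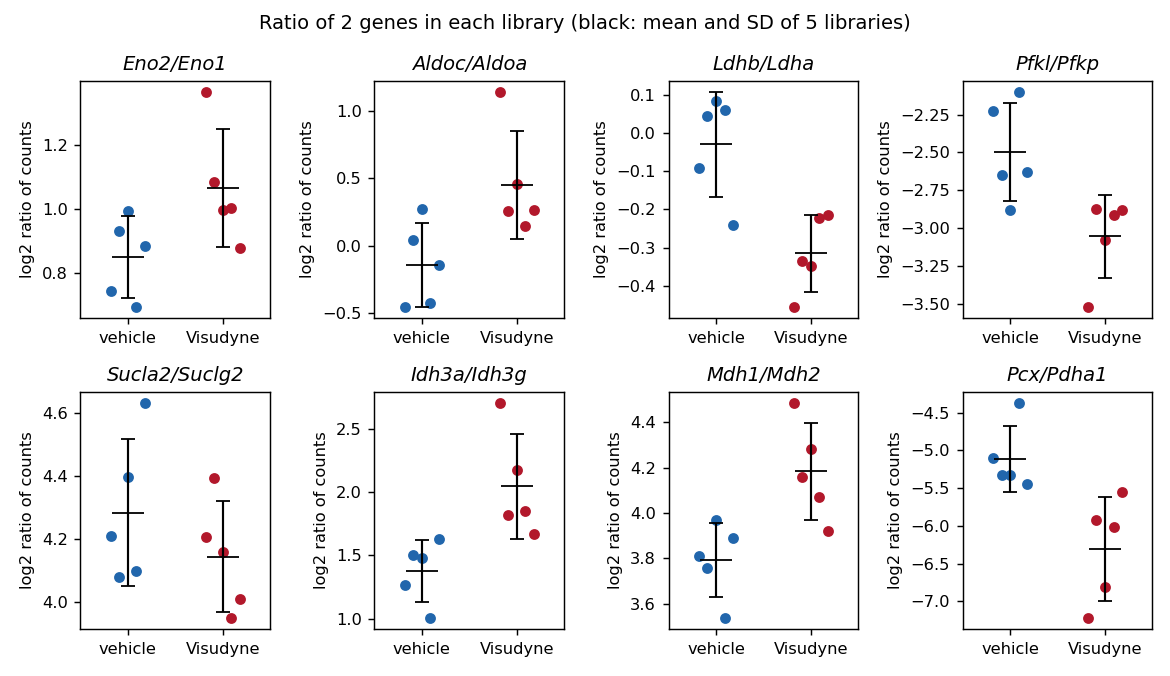
Log2 ratio of the counts of 2 genes in each library (y axis) for 8 of the 14 pairs, as points, 5 libraries a group, with black bars for the mean and SD. Idh3a/Idh3g and Pcx/Pdha1 do not overlap between the groups, whereas Sucla2/Suclg2 does. Visudyne 1 is at an end of its group in each panel but Sucla2/Suclg2.

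Across all tested genes the fold change fell with the GC content of the exons. The median log2 fold change was 0.31 for the 1120 genes with 35% to 40% GC, 0.19 at 40% to 45%, 0.031 at 45% to 50%, -0.20 at 50% to 55% and -0.43 at 55% to 60%. Exons of the 33 genes held 39.3% (Dld) to 56.8% (Aldoa) GC, with a median of 51.1%, against 48.3% over the tested genes. Of the 17 genes above 50% GC, 12 were called lower at a median of -0.49, and of the 16 others 8 were, at a median of -0.18. After removal of the GC trend these medians were -0.24 and -0.21. Of the 33 genes 27 lay under the median of all genes in their 5-point GC bin. At 45% to 50% GC 8 of 12 were called lower, against 5.37% of all genes in that bin. At 50% to 55% it was 7 of 12, against 20.6%. At 55% to 60% it was 5 of 5, against 30.2%, and 3 of these 5 lay under the bin median. At 40% to 45% it was 0 of 3, against 0.46%, and at 35% to 40% 0 of 1, against 0.268%. The lower level of GC-rich transcripts and the group cannot be told apart in these libraries, since all but 1 of the Visudyne slopes lay below all vehicle slopes.

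**Figure D5:**
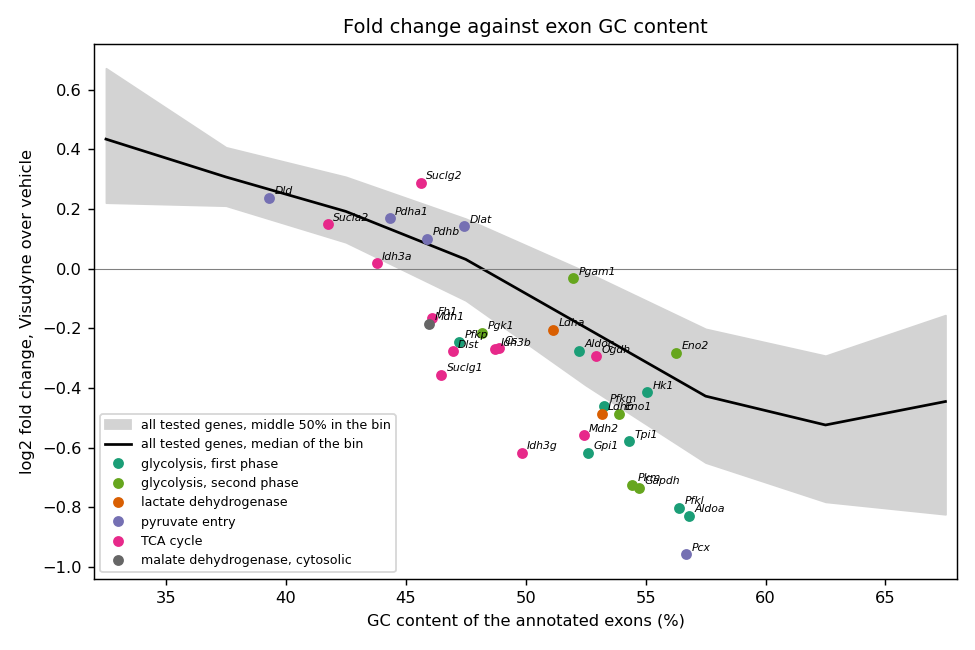
Log2 fold change of the 33 genes, Visudyne over vehicle (y axis), against the GC content of their annotated exons (x axis, %), coloured by role, with the median of all tested genes in 5-point GC bins as a black line and the middle 50% of genes in grey. Fold changes fall with GC for all genes and for the 33, and 27 of the 33 lie under the median of their bin.

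The libraries of different groups with the closest GC slopes were Visudyne 5 (0.013) and vehicle 10 (-0.015), which is 1 library against 1 and so has no test. Between them 17 of the 33 genes were lower in the Visudyne library and 16 higher, with a median log2 difference of -0.0048, and 49.2% of all tested genes were lower. The level of Aldoa was 175 CPM in the Visudyne and 171 CPM in the vehicle library, Pkm at 124 and 109 CPM and Pgk1 at 236 and 235 CPM. Of the 14 glycolysis genes 3 were lower in Visudyne 5. Of the 11 TCA cycle genes 9 were lower, among them Idh3g at 28 and 30.4 CPM, Suclg1 at 31.8 and 35 CPM and Fh1 at 40.6 and 43.9 CPM.

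Genes around the pathway were called in both directions. Of 75 tested genes in 8 further lists of energy metabolism 14 were called lower and 5 higher, with a median log2 fold change of -0.10, beside the 11.5% and 8.98% of all genes. Of 9 tested transporters of glucose, lactate and pyruvate 1 was called lower. Slc16a3, the lactate exporter MCT4, was at 0.193 ± 0.0756 CPM after Visudyne against 0.386 ± 0.0952 CPM after vehicle, and Slc2a1, the glucose transporter GLUT1 of vessels and astrocytes, was at 8.21 ± 0.862 and 10.2 ± 1.4 CPM and not called (adjusted p = 0.0505 by edgeR). Of 6 other glycolytic enzymes tested 1 was called, Hkdc1, lower at a fold of 0.561. Of 10 regulators of glycolysis 2 were called, both higher. Hif1a, the hypoxia-inducible transcription factor, rose from 130.5 ± 13.5 to 159.4 ± 12.6 CPM and Prkaa2, a catalytic subunit of AMP-activated kinase, from 58.2 ± 6.86 to 74.9 ± 9.55 CPM (n = 5 each). Once the GC trend was removed, these 2 were at log2 fold changes of 0.027 and 0.11 and not called.

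None of 8 regulators and further components of pyruvate dehydrogenase was called by edgeR. Pdk1, a kinase that inhibits the complex, was at a log2 fold change of 0.15 (adjusted p = 0.095 by edgeR) and Pdp1, a phosphatase that activates it, at 0.070. Of 14 other enzymes of the TCA cycle and its branches 4 were called lower and 3 higher. Ogdhl, the Ogdh-like subunit of brain, was at a fold of 0.631 and Sdhb, the iron-sulphur subunit of succinate dehydrogenase, at 0.771, while Sdha, its flavoprotein subunit, was at 180.6 ± 5.25 and 187 ± 4.24 CPM and not called. Of 11 genes of the malate-aspartate shuttle and citrate exchange 4 were called lower, among them Got1, the cytosolic aspartate aminotransferase, at 0.719 and Slc25a11, the 2-oxoglutarate carrier, at 0.819. Of 10 glycogen genes 1 was called, Pygb, the brain glycogen phosphorylase, lower at 0.691. Of 7 pentose phosphate genes 3 were called lower, among them G6pdx, the entry enzyme, at 0.70 and Taldo1, transaldolase, at 0.671. With the GC trend removed 4 of the 75 were called, all lower, and Ogdhl, Got1 and G6pdx were among them.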

How the data were processed

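A single deposited table holds estimated counts per gene, as whole numbers, for the 10 libraries. The submitters' processing notes name Salmon, FastQC and mm10, and the labels' protocols a stranded kit for total RNA. Which annotation and Salmon version the authors used is not given here. No rounding or other change was made to the deposited estimated counts. Symbols, exon lengths and GC content came from GENCODE M21 (GRCm38), which held 27053 of 27343 identifiers, and GC content was known for 15829 of 15938 tested genes. GC content and length are those of all annotated exons merged, which may differ from the transcripts that are expressed.

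Groups were compared in R 4.3.3 with edgeR 4.0.16 (quasi-likelihood test, filterByExpr, TMM, group only, two-sided, Benjamini-Hochberg over all tested genes, called under 0.05). Levels are CPM with TMM library sizes. The SE is the log2 fold change divided by the square root of F. Alternatives used DESeq2 1.42.0, limma 3.58.1 (voom with library weights), sva 3.50.0 and a loess trend on GC (span 0.3) entered as offsets. Counts may be shared with overlapping genes (13 of the 33 loci overlap a gene on the other strand, 4 one on the same strand), since strand use in counting is not given, and with retrocopies. Eno1b held 152 counts against 29834 for Eno1, and 2 named Ldha pseudogenes 35 against 22307.

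All 33 genes are accounted for. From each further list the text names genes among those with the smallest p or the highest mean CPM. The values of 1 gene that this rule names are not reported here. The members, lists and tests were chosen with earlier results of these data known.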

Additional observations from a re-analysis of the deposited data

Results flagged for a closer look

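Within a group of 5 libraries, a value was marked where its gap to the nearest other was more than 0.71 of the whole range, which chance does in about 1 of 20 groups. Of 94 groups 5 were marked. Pfkp was at 79.9 CPM in vehicle 10, against 92 to 96.5 CPM in the other vehicle libraries. Pgam1 was at 222 CPM in Visudyne 1, against 236 to 240.0 CPM. Pcx was at 9.08 CPM in vehicle 9, against 5.1 to 6.23 CPM. Sucla2 was at 159.8 CPM in vehicle 9, against 193 to 205 CPM. Suclg2 was at 9.74 CPM in Visudyne 2, against 12.2 to 12.9 CPM, and without that library edgeR called it higher.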

How the results depend on the processing

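The count of all called genes was 3261. It was 2075 without a filter on low counts. It was 521 with the GC trend removed, 0 with the GC slope as a covariate, 1 with 1 surrogate variable, 100 with Visudyne 1 and vehicle 9 left out together (an alternative chosen after seeing the data) and 10 to 5047 when 1 library was left out. From the GC trend on, in the same order, the 20 members called lower became 7, 0, 0, 0 and 0 to 25. In the last 2 of these, edgeR still gave 22 members an unadjusted p under 0.05 with both libraries out and 25 to 29 with 1 out. The share of all genes under that unadjusted threshold was not counted in these fits. The count of members called higher was 0, and it was 1 with a mean of at least 1 CPM, 2 by DESeq2 and 0 to 1 when 1 library was left out. The other pathway genes called were 19, and 30 with total counts, 4 with the GC trend removed, 0 with the GC slope, 0 with 1 surrogate variable, 0 without Visudyne 1 and vehicle 9, and 0 to 29 when 1 library was left out. The median of the members, -0.28, was -0.47 with total counts, 0.012 with the GC slope, -0.084 with 1 surrogate variable and -0.33 to -0.23 when 1 library was left out. The 7 ratios called became 3 with the GC trend removed, 0 with a prior count of 10, 0 without Visudyne 1 and vehicle 9, and 0 to 9 when 1 library was left out. With both of these libraries out only 70 assignments remained, which left little room for a call after adjustment. In that setting 2 pairs had an unadjusted exact permutation p under 0.05. Fewer libraries enter the fits that leave libraries out. Otherwise the cause was not tested.

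Log2 fold changes whose sign turned are as follows. With total counts they were Pdha1 -0.037, Pdhb -0.11, Dlat -0.065, Idh3a -0.18, Sucla2 -0.057, Pdk1 -0.061, Pdp1 -0.14, Glud1 -0.11 and Ugp2 -0.0019. With the GC trend removed they were Pgam1 0.15, Eno2 0.10, Dld -0.047, Idh3a -0.15, Sucla2 -0.074, Bsg 0.24, Pdp1 -0.17, Slc25a11 0.016 and Ugp2 -0.031, and the ratio differences Pfkm/Pfkp 0.078, Dlst/Ogdh -0.27 and Dlat/Dld 0.17. With the GC slope as a covariate they were Hk1 0.068, Gpi1 0.14, Pfkm 0.0097, Pfkp 0.046, Pfkl 0.045, Aldoa 0.15, Aldoc 0.15, Tpi1 0.066, Gapdh 0.30, Eno1 0.094, Eno2 0.017, Pkm 0.19, Ldha 0.018, Dlat -0.063, Dld -0.072, Pcx 0.012, Cs 0.020, Idh3a -0.072, Ogdh 0.064, Sucla2 -0.064, Bsg 0.037, Pdk2 0.28, Pdp1 -0.19, Glud1 -0.0023, Ugp2 -0.15 and Tkt 0.086. With 1 surrogate variable they were Aldoc 0.0085, Dlat -0.0081, Idh3a -0.042, Sucla2 -0.012, Pdk2 0.026, Pdp1 -0.14 and Ugp2 -0.078. Idh3a was at -0.020 with limma-voom, -0.018 without vehicle 9 and -0.017 without Visudyne 1 and vehicle 9. In these last 2, Dlst/Ogdh was at -0.016 (its range was -0.016 to 0.044 when 1 library was left out) and -0.033, and in the last Pdp1 was at -0.021. No paired analysis was possible because the replicate numbers run from 1 to 5 in Visudyne and from 6 to 10 in vehicle, so the groups share none.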

Other observations

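The genes named here belong to the lists of other TCA cycle enzymes and of the pentose phosphate pathway and were chosen after their values were seen, so they form no tested group. Me1, the cytosolic malic enzyme, rose from 33.6 ± 1.37 to 41.3 ± 3.82 CPM (n = 5 each), an edgeR log2 fold change of 0.30 with SE 0.068 at adjusted p = 0.025. So did Idh1, the cytosolic isocitrate dehydrogenase, which went from 38.7 ± 3.4 to 47.7 ± 3.64 CPM (log2 fold change 0.30, SE 0.075). G6pdx, which makes NADPH in the pentose phosphate pathway, fell from 11.8 ± 1.39 to 8.24 ± 1.26 CPM. Tkt, the transketolase of the same pathway, fell from 12.6 ± 3.48 to 7.21 ± 2.48 CPM. Without the GC trend Me1 was at 0.28 and Idh1 at 0.15, neither called, while G6pdx was called at -0.38 and Tkt was not, at -0.54. Other NADPH-forming enzymes of these lists were not called by edgeR. Pgd, the second NADPH-forming enzyme of the pentose phosphate pathway, was at -0.32 (adjusted p = 0.083 by edgeR), the mitochondrial Idh2 at -0.40 (adjusted p = 0.16 by edgeR) and the mitochondrial Me3 at 0.070 (adjusted p = 0.67 by edgeR).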
